A study of Homo sapiens with 12 samples.

Results

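The regions described here carried an ATAC-seq entry with full-length SOX2 and in none of the other 8 peak lists of the series. They are called SOX2-only regions. The entries of all 9 deposited lists on chromosomes 1 to 22 and X, whatever their IDR, were merged where they overlapped by at least 1 bp, and the members were chosen by an entry in the SOX2 list and none elsewhere. Of 399183 merged regions, 144734 held a SOX2 entry, and 14524 of these were SOX2-only (10.0%). Each of the 14524 held exactly 1 SOX2 entry. Because presence in the lists chose the members, their number, their strength and every value of the SOX2 entries are a description and were not tested.

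All samples came from U2OS, a human osteosarcoma cell line, and the labels give 12 samples in 6 groups of 2. The SOX2 cells carried a Tet-on SOX2 construct and had 4 days of 500 ng/ml doxycycline. The fusion cells carried a Tet-on construct of SOX2 joined to the CTD of FOXA2, under the same dose and time. The wild type of the SOX2 set has empty genotype and treatment fields, and its label names the SOX2 cell line, so that parental and uninduced cells cannot be told apart there. The FOXA2 set holds another wild type, with the same fields empty, a Tet-on full-length FOXA2 construct and a FOXA2 construct without its CTD, both induced for 4 days at 500 ng/ml. A text on doxycycline is shared by every sample, wild types included, so whether wild-type cells received the drug is not given. The 6 libraries of the FOXA2 set had a list each. The 3 groups of the SOX2 set had 1 list each, in the layout of the IDR procedure, which ranks peaks shared by a pair of inputs. The 9 lists held from 19862 to 177650 entries, the SOX2 list 147763, and read depth is unknown. With 1 list per group there is no spread between replicates and no test over samples; the Wilson 95% intervals below cover counting error only.

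SOX2 is a transcription factor of the HMG-box family. Its HMG domain binds the minor groove of short words such as ACAAAG and ACAATG and bends the DNA, and SOX2 can reach its words on nucleosomes, for which it is called a pioneer factor. It is best known for keeping embryonic stem cells and neural progenitors in their state, and for its part in the foregut and inner ear. ATAC-seq reads where the Tn5 transposase can insert adapters, so that an entry marks open chromatin and does not by itself show binding of SOX2.

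Sequences could be shown for members at gene starts. Of the 34961 promoter windows in the RefSeq table of GRCh38.p14 (250 bases before to 50 after a start), 211 overlapped a member, and 184 of the 13664 members on chromosomes that the table covers were involved (1.35%). Of these members, 112 overlapped a window of a protein-coding gene. For all SOX2 regions, 12381 windows were involved for 136492 regions on these chromosomes. A summit within 1 kb of a start of a protein-coding gene was found in 1.36% of members and 8.001% of all SOX2 regions there. The sequences below thus come from a small part of the members. The part upstream of the start that was covered by the member, outside every annotated gene and at least 80 bases long, could be taken for 31 members, and 5 of the 31 stretches held ACAAAG or ACAATG on either strand. Of all 34961 windows, which are longer than these stretches, 24.4% held such a word, and 17.2% of the windows over 50% G+C. The 5 stretches with a word are given first, since they hold the letters known for SOX2. Each is read 5′ to 3′ on the strand of its gene with the word in capitals (CTTTGT is ACAAAG read on the opposite strand). CELF5 (chr19:3224445-3224660, strand +) encodes an RNA-binding protein of the CELF family, and LDHC (chr11:18412068-18412317, strand +) the testis form of a lactate dehydrogenase subunit. HES6 (chr2:238240039-238240284, strand −) encodes a bHLH factor of neuronal differentiation, ADIG (chr20:38580947-38581196, strand +) adipogenin, and APBA2 (chr15:28885841-28885973, strand +) a neuronal adaptor that binds the amyloid precursor protein.
CELF5: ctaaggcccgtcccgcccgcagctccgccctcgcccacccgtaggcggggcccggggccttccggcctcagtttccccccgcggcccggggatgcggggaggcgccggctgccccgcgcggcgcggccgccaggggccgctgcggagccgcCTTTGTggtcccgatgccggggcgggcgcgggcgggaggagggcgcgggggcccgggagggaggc
LDHC: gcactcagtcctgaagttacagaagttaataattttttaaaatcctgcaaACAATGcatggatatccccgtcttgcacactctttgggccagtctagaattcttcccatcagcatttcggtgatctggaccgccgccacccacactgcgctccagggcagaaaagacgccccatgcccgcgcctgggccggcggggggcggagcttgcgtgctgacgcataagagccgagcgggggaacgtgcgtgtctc
HES6: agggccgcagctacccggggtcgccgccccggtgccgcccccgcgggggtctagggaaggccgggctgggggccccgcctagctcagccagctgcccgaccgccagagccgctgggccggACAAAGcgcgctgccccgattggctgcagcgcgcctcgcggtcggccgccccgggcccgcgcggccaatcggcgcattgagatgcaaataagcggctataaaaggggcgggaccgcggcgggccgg
ADIG: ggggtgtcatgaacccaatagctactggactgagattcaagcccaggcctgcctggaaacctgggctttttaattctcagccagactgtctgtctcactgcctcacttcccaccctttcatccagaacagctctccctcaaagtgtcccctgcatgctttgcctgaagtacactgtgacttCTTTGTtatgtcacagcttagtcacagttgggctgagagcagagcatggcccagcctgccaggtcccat
APBA2: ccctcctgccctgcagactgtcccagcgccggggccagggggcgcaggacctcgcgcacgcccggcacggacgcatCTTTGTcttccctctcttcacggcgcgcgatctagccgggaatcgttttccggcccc

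The 3 strongest stretches without such a word are given for contrast. They lay before DGKD (chr2:233354244-233354493, strand +), a diacylglycerol kinase, LAMA5 (chr20:62367313-62367489, strand −), a laminin chain of basement membranes, and TRAF3 (chr14:102777199-102777448, strand +), an adaptor of TNF receptor signalling.
DGKD: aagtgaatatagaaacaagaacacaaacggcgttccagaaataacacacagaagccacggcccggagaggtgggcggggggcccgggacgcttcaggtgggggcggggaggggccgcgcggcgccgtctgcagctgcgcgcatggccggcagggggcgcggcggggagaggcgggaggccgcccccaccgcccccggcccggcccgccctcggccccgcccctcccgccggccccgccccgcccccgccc
LAMA5: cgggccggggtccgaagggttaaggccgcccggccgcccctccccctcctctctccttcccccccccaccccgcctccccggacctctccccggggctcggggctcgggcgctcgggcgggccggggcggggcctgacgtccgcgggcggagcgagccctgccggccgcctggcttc
TRAF3: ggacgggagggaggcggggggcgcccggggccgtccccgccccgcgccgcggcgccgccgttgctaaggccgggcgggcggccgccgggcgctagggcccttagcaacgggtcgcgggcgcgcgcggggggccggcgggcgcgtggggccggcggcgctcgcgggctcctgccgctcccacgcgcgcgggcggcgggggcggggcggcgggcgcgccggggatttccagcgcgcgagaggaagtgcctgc

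These 3 were 77.2%, 82.5% and 86.4% G+C in the order given. Of the 5 with a word, CELF5 had 83.8% G+C, HES6 76.8%, APBA2 70.7%, LDHC 56.8% and ADIG 52.8%. The HES6 stretch also held ATGCAAA, the word of OCT factors, and the CELF5 stretch TGTGGT, the word of RUNX factors. A match of these short words is a description of the letters and not a site of binding.

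The SOX2-only regions were weak entries. The deposited −log10 p of an entry in the SOX2 list, which is the lower of the values of its inputs, had a median of 3.47 in the members (quartiles 2.77 and 4.19, range 1.78 to 15.1). Over all 144734 regions with a SOX2 entry the median was 6.05, and over the 40336 regions with entries in SOX2 and fusion and no other list it was 5.53. In the 8417 regions with an entry in all 9 lists the SOX2 entry had a median of 27.1. The median member stood at percentile 16.5 of the SOX2 list, and the highest at 84.6. Members were also narrow, with a median width of 332.5 bp against 536 bp over all SOX2 regions and 1098 bp over the regions of all 9 lists.

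**Figure D1:**
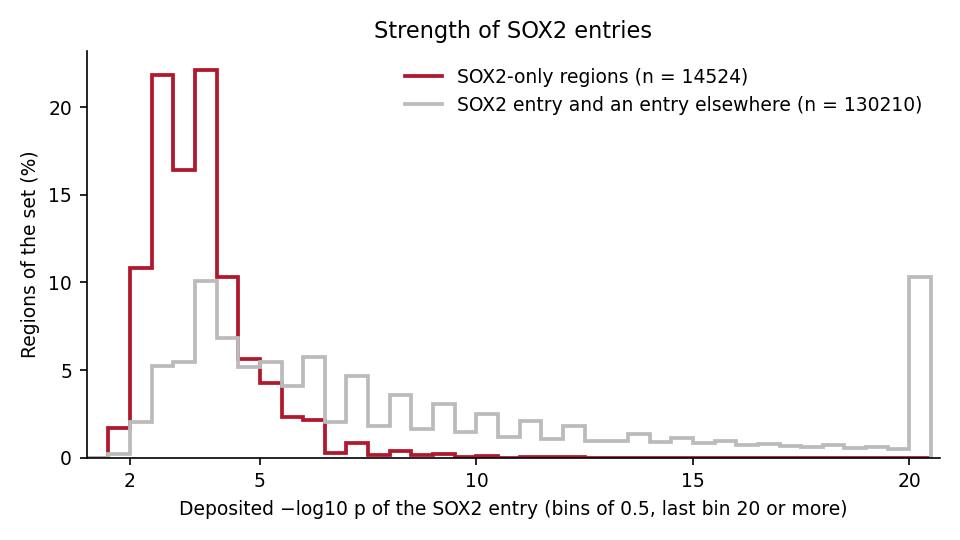
Share of regions (%) by the deposited −log10 p of the SOX2 entry in bins of 0.5, for the 14524 SOX2-only regions and the 130210 regions with a SOX2 entry and an entry elsewhere; the last bin holds values of 20 or more. The SOX2-only regions are concentrated at low values (median 3.47) and end at 15.1, while the others (median 6.42) spread to 142.6.

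The global IDR, an estimate of the share of irreproducible entries, was at most 0.05 in 423 members (2.91%, 95% interval 2.65 to 3.20). Over all regions with a SOX2 entry, 65129 met this threshold (45.0%), and 39.4% of the SOX2 and fusion regions did. At a threshold of 0.01, 87 members remained (0.599%), and 873 met 0.1 (6.01%). The highest value in the list, 0.524, was held by 10642 members (73.3%), against 25.98% of all SOX2 regions. Seen from the other side, 423 of the 65129 SOX2 regions at an IDR of at most 0.05 were in no other list (0.649%).

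Being in no other list was not particular to SOX2 in number. By the same rule 37561 of 173896 regions of the fusion list were fusion-only (21.6%), and 19464 of 108216 regions of the wild-type list of the SOX2 set were found in that list alone (18.0%). Both shares were above the 10.0% of the SOX2 list. Fusion-only regions met the IDR threshold in 3936 cases (10.5%) and wild-type-only regions in 1974 (10.1%). Among regions that met it, 5.25% of the fusion list and 4.14% of the wild-type list were private, against 0.649% of the SOX2 list. The lists differ in length and share an assay and a cell line, and the SOX2 list had a close partner in the fusion list: without the fusion list 56297 regions would have counted as SOX2-only, so that the number of members rests on that list.

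The share fell with the strength of the entry. In the weakest decile of the SOX2 list, 4928 of 14503 regions were SOX2-only (33.98%, 95% interval 33.2 to 34.8), in the fifth 7.10%, and in the seventh 1.14%. The eighth decile held 40 members, the ninth 6 and the tenth none of 14474. The fusion list went from 48.4% in its weakest decile to 0.167% in its strongest, and the wild-type list from 44.8% to 0.0739%. In each of the 10 deciles the SOX2 share was the lowest of the 3.

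**Figure D2:**
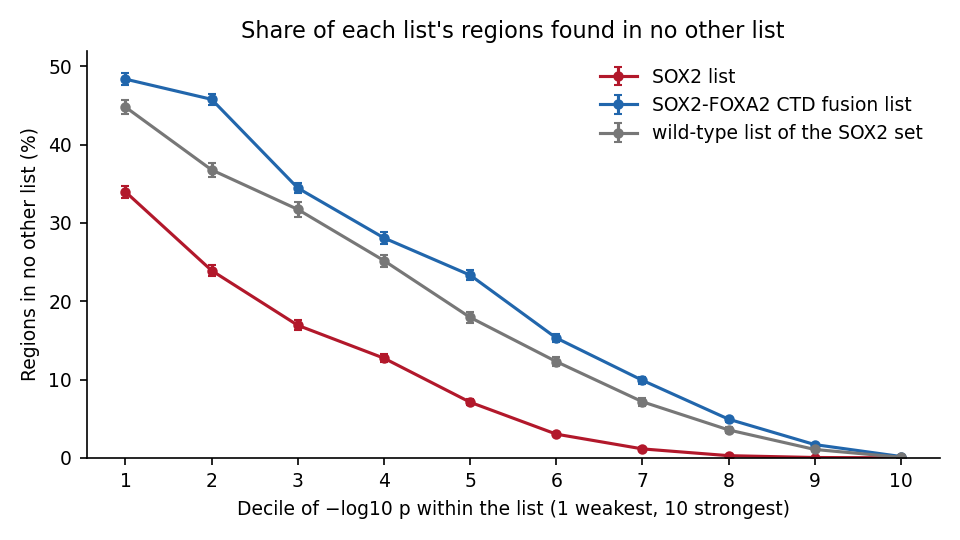
Share of regions in no other list (%) by decile of −log10 p within each of the 3 lists of the SOX2 set; bars are Wilson 95% intervals. All 3 curves fall from the weakest to the strongest decile, and the SOX2 curve (34.0% to 0) lies below the other 2.

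Both inputs contributed to the weak values. Across the members the first input had a median −log10 p of 3.92 and the second 3.54, and the first was the higher in 59.2% of them, close to the 57.1% over all SOX2 regions. In 8601 members both inputs were under 5 (59.2%), against 13.99% of the SOX2 regions with an entry elsewhere. In 4300 members 1 input reached 5 and the other did not (29.6%, against 21.1%), and in 1623 both did (11.2%, against 64.9%). A pronounced mismatch, with 1 input at 10 or more and the other under 5, was seen in 55 members (0.379%), and 36 members had both at 10 or more. Across members the Spearman correlation of the inputs was 0.296, and across all SOX2 regions 0.780; these points share libraries, and the narrow range of the members bears on the first value. The summits of the inputs lay a median of 80 bp apart in members and 74 bp over all SOX2 regions, and 49 bp in the regions of all 9 lists.

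At the border of the rule the members resembled the regions left out. For 369 members an entry of another list began within 50 bp, and these had a median −log10 p of 3.29. The 551 SOX2 entries whose largest overlap with another list was 1 to 50 bp had a median of 3.13. For the whole set the nearest region with an entry of another list was a median of 2157 bp away, and for 2689 members (18.5%) it was within 500 bp.

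A small part of the members lay in long parts of the chromosomes without genes, where they made up a larger share of the SOX2 regions than elsewhere. For each chromosome the longest stretch between annotated genes of any kind was taken; the 23 stretches were 2.16 to 21.7 Mb long and covered 164.4 Mb in all. By position most of them lie at or beside the centromere in this build, a part of the chromosome known for repeated satellite DNA. No centromere or repeat annotation was used here, so the sequence of the stretches was not examined. In these stretches 1139 of 4207 regions with a SOX2 entry were SOX2-only (27.1%, 95% interval 25.8 to 28.4), against 13385 of 140527 elsewhere (9.52%, 9.37 to 9.68). The fusion list showed the opposite order, with 12.5% of its 2542 regions in the stretches and 21.7% of the others being fusion-only. In the wild-type list of the SOX2 set the shares were 9.74% of 1253 regions and 18.1% of the others. The stretches held 2.91% of the regions of the SOX2 list, 1.46% of those of the fusion list and 1.16% of those of the wild-type list. By the rule, an entry of one list takes a region out of the private regions of another. The shares of the 3 lists thus depend on one another and on their unequal numbers of regions in the stretches. The part of this in the opposite order was not tested.

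**Figure D3:**
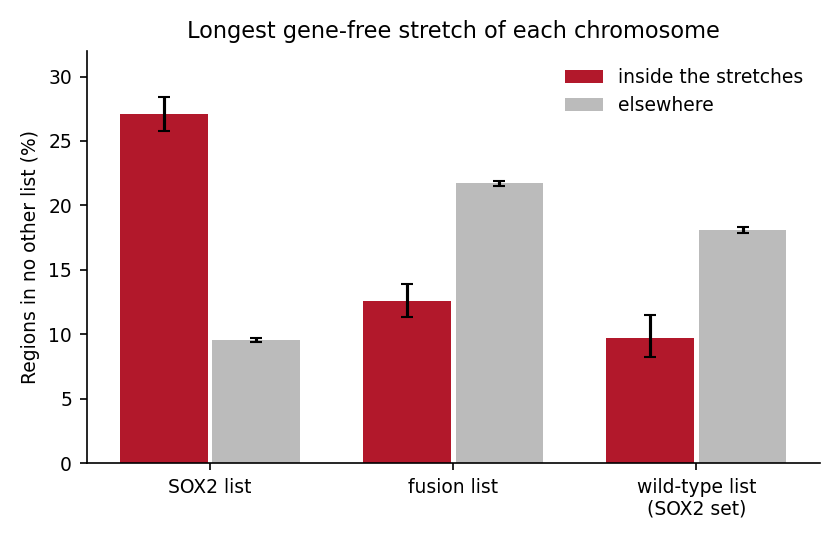
Share of regions in no other list (%) inside the longest gene-free stretch of each chromosome and elsewhere, for the 3 lists of the SOX2 set; bars are Wilson 95% intervals. Only in the SOX2 list is the share higher inside (27.1% against 9.52%); in the fusion list (12.5% against 21.7%) and the wild-type list (9.74% against 18.1%) it is lower. By the rule the shares of the 3 lists depend on one another.

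Seen as a share of the sets, 7.84% of the SOX2-only regions lay in these stretches (7.42 to 8.29), 1.35% of the SOX2 and fusion regions, 0.849% of the fusion-only and 0.627% of the wild-type-only regions. Regions of all 9 lists stood above these 3 comparison sets, at 4.05% (3.65 to 4.49), and below the members. Within each decile of strength that held members, from the weakest to the ninth, a larger share of members than of SOX2 regions with an entry elsewhere lay in a stretch. In the weakest decile it was 6.76% of 4928 members (6.09 to 7.49) and 4.01% of 9575 others (3.64 to 4.42), in the fifth 9.64% (7.98 to 11.6) and 2.91% (2.64 to 3.21), and in the seventh 10.2% of 167 members (6.45 to 15.7) and 1.84% (1.63 to 2.07). The eighth and ninth deciles held 40 and 6 members. The members in the stretches had a median −log10 p of 3.54 and those elsewhere 3.45, and 39 of the 1139 met the IDR threshold (3.42%, against 2.87% elsewhere). The share of members among SOX2 regions was highest in the stretch of chromosome 3, with 47 of 94 (50.0%), and of chromosome 8, with 59 of 120 (49.2%). The largest numbers stood on chromosome 5 (172 of 488), chromosome 19 (158 of 417) and chromosome 20 (144 of 370). Of the 21 stretches with a SOX2 region, 18 had a higher share of members than the rest of their chromosome and 3 a lower one. The 3 were on chromosome 1, the longest, with 19 of 430 (4.42%, against 8.52% in the rest), chromosome 13 with 1 of 98 (1.02%, against 9.39%) and chromosome 10 with 32 of 341 (9.38%, against 10.98%). How reads in repeated sequence were placed is not given in the sources used here.

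The 3 megabases with most members were 25000001 to 26000000 and 26000001 to 27000000 on chromosome 19 and 27000001 to 28000000 on chromosome 20. Each held 66 members, among 152, 175 and 165 SOX2 regions in that order (43.4%, 37.7% and 40.0%). None of the 3 holds a protein-coding gene. The same bins held 19, 16 and 5 fusion-only regions and 2, 9 and 2 wild-type-only regions. Counted over all megabases, these 3 included, 2838 of the 2939 with a SOX2 region held a member, with a median of 4. Members made up 10.0% of the SOX2 regions over the whole list.

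By chromosome, the share of SOX2 regions that were SOX2-only went from 8.26% on chromosome 4 and 8.38% on chromosome 1 to 13.6% on chromosome 20, 14.6% on chromosome 21 and 15.1% on chromosome 22. Without the gene-free stretches chromosome 19 moved from 11.3% (rank 6 of 23) to 7.21% (rank 23), and chromosome 20 from 13.6% to 10.9%. Chromosome 22 (15.1%, 13.7 to 16.5) and chromosome 21 (14.6%, 13.05 to 16.4) stayed the highest, with intervals that overlap each other and no other chromosome's. The same chromosomes did not lead in the other lists: chromosome X had the highest share of both fusion-only (29.4%) and wild-type-only regions (21.3%), and only 9.26% for SOX2. Across the 23 chromosomes, the Spearman correlation of the SOX2 share with the fusion share was −0.45 and with the wild-type share 0.014, as a description of lists that share a cell line and its copy number.

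**Figure D4:**
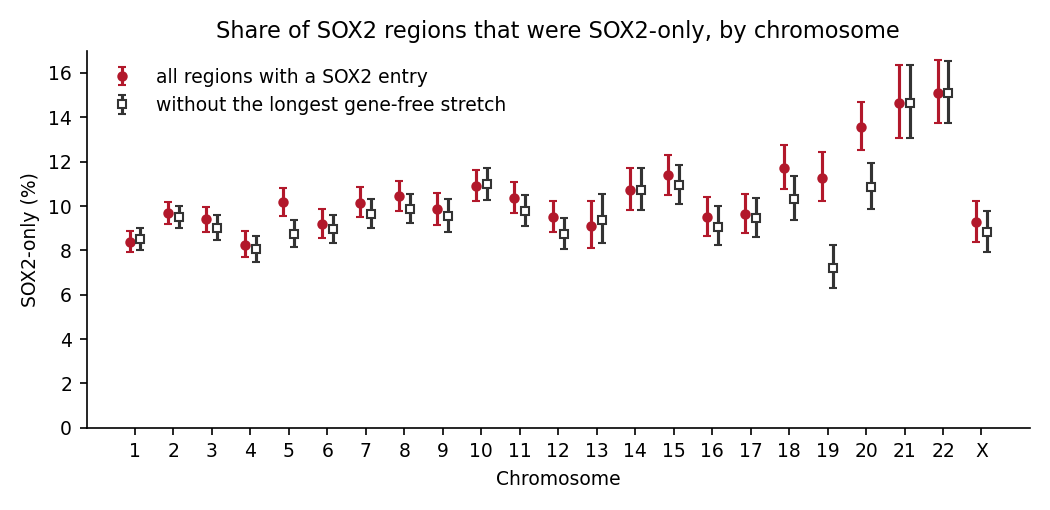
Share of regions with a SOX2 entry that were SOX2-only (%), by chromosome, for all regions and without each chromosome's longest gene-free stretch; bars are Wilson 95% intervals. Chromosomes 21 and 22 stay near 15% in both, while chromosome 19 drops from 11.3% to 7.21% and chromosome 20 from 13.6% to 10.9%.

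The position of the members was also read against protein-coding genes. The summit was inside a protein-coding gene in 5612 members (38.6%, 37.9 to 39.4), against 40.8% over all SOX2 regions and 42.6% of fusion-only regions. Without the stretches it was 41.9% of members (41.1 to 42.8), 42.0% of all SOX2 regions (41.7 to 42.2) and 42.9% of fusion-only regions (42.4 to 43.4). Outside the stretches the interval of the members thus overlapped both others. Of the 13664 members outside chromosome 8, 186 had a summit within 1 kb of a start of a protein-coding gene (1.36%). The gene-free stretches were included in this count. Its interval (1.18 to 1.57) lay above those of the SOX2 and fusion regions (0.546%, 0.476 to 0.625) and the fusion-only regions (0.787%, 0.700 to 0.884) and below that of the wild-type-only regions (2.08%, 1.88 to 2.30). The share was 8.001% over all SOX2 regions and 48.7% in the regions of all 9 lists. These sets hold stronger entries than the members. In deciles 1 to 3 of strength the share was 1.28% of members and 3.05% of SOX2 regions with an entry elsewhere. In deciles 4 to 7 it was 1.65% and 3.39%. A distance of over 500 kb to the nearest protein-coding gene was found for 2333 members (16.1%, 15.5 to 16.7), above the 11.2% of the SOX2 and fusion regions, the 9.64% of the fusion-only and the 5.70% of the wild-type-only regions. Without the gene-free stretches it was 9.53% of members (9.04 to 10.0), 10.2% of SOX2 and fusion, 8.98% of fusion-only and 5.26% of wild-type-only regions. Outside the stretches the interval of the members thus overlapped those of the SOX2 and fusion regions (9.89 to 10.5) and of the fusion-only regions (8.69 to 9.27). It lay above those of the wild-type-only regions (4.95 to 5.58) and of all SOX2 regions (6.90%, 6.77 to 7.03).

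**Figure D5:**
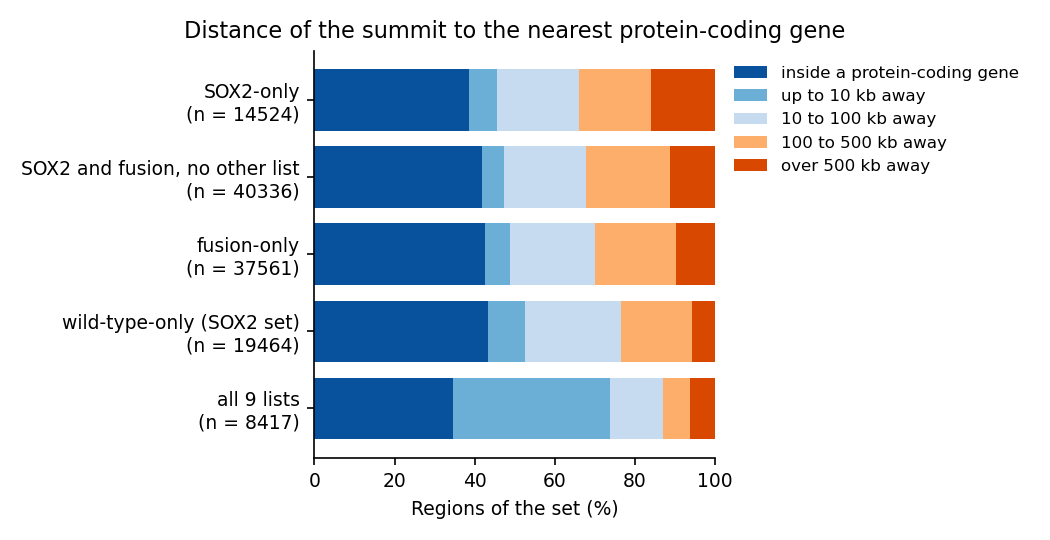
Distance of the summit to the nearest protein-coding gene, as shares of each set (%), for SOX2-only regions, SOX2 and fusion regions, fusion-only regions, wild-type-only regions and regions of all 9 lists. SOX2-only regions have the largest class over 500 kb away (16.1%), and regions of all 9 lists the largest class within 10 kb outside a gene (39.3%).

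Most members had other open regions nearby. Another region of the SOX2 list was within 10 kb of 9971 members (68.7%), against 66.9% over all SOX2 regions, and the median gap was 6.17 kb. Another SOX2-only region was within 10 kb of 2281 members (15.7%, 15.1 to 16.3). A SOX2-only region was within 10 kb of 10.1% of SOX2 and fusion regions and 9.79% of fusion-only regions. The members are thus set beside their own kind and the other sets beside the members. Another SOX2 and fusion region was within 10 kb of 28.2% of the regions of that larger set, and one was within 10 kb of 26.2% of members. The 15.7% includes the members in the gene-free stretches. Grouped at gaps of at most 10 kb, 12243 members stood alone, and there were 866 pairs of members. The largest groups were 2 of 8 members, at chr19:25614982-25642431 and chr19:26911927-26953071, both in the gene-free stretch. A region of all 9 lists was within 10 kb of 4.82% of members, 5.62% of all SOX2 regions, 3.90% of SOX2 and fusion regions and 4.33% of fusion-only regions.

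The strongest members are named with their nearest protein-coding gene, which is a statement of position and not of control. Over all members 38.6% lay inside a protein-coding gene, 34.0% more than 100 kb from one and 7.84% in a gene-free stretch. The 20 strongest had −log10 p values from 10.6 to 15.1, 6 lay inside a gene, 9 lay more than 100 kb from one, and 3 lay in a gene-free stretch. The strongest of all, chr10:41790809-41791596, was one of the 3, 783.0 kb from ZNF33B, a zinc finger gene; its inputs had −log10 p values of 15.1 and 16.5. It was only number 22328 by strength in the SOX2 list. The others in a stretch were chr11:50623193-50624342 (12.8), 641.0 kb from the olfactory receptor gene OR4C12, and chr7:57919575-57920444 (11.05), 446.3 kb from ZNF716.

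Second was chr5:4233722-4234165, 632.4 kb from IRX1, a homeobox factor, with inputs at 15.6 and 14.1 and summits 17 bp apart. The next were chr5:87076971-87077638, 190.8 kb from RASA1, a RAS GTPase-activating protein, and chr6:147456835-147457660, 51.3 kb from SAMD5, both at 13.5. AUTS2, a neurodevelopmental gene, was the nearest gene of chr7:68977678-68978170 (12.6) at 620.5 kb, and CNTN3, a contactin of neuronal membranes, of chr3:74017610-74018305 (12.4) at 244.8 kb. The melanocortin receptor gene MC2R lay 73.7 kb from chr18:13989242-13989573 (11.5). CPXCR1 lay 505.4 kb from chrX:89259882-89260401 (11.4), and SPIN1, a reader of histone methylation, 65.0 kb from chr9:88323080-88323751 (10.6). COL22A1, a collagen chain, lay 80.1 kb from chr8:138993905-138994373 (10.6). On chromosome 15, chr15:39181065-39181704 (12.4) was 398.5 kb from LOC124903470 and chr15:20365422-20365840 (11.8) was 33.5 kb from LOC124903442, genes named by identifier only.

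Inside genes, the strongest was chr9:28124640-28125355 in LINGO2, a leucine-rich repeat protein of neuronal membranes, with inputs of 15.4 and 13.2 and an IDR of 0.00115. CRB1, a polarity protein of the retina, held chr1:197438145-197438802 (12.4), and PRG2, the eosinophil major basic protein, chr11:57387230-57387812 (11.7). BMPR2, a receptor of BMP ligands, held chr2:202494228-202494736 (11.2), POF1B, an actin-binding protein, chrX:85365217-85365892 (11.3), and CNBD1 chr8:87294165-87294766 (11.3). Over the 20 members the summits of the inputs lay 3 to 266 bp apart.

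Genes with a member were longer than genes without one. Of 19974 protein-coding genes 3469 had a member between their ends (17.4%), 2353 of them exactly 1, and 146 had 5 or more. Genes with a member had a median length of 112.6 kb and genes without one of 18.02 kb. CTNNA3, an alpha-catenin of cell junctions 1851 kb long, and EYS, a protein of photoreceptors 1987 kb long, had 16 each. AUTS2, LRMDA and TENM4, a teneurin of neuronal adhesion, had 14 each. LINGO2 and PCDH15, a protocadherin of inner ear hair cells, had 13, RBFOX1, a splicing factor of neurons, 12, and CACNA1C, a calcium channel subunit, and CNTNAP2, a neurexin-like adhesion protein, 11. Per Mb the 10 ranged from 4.77 members in CNTNAP2 to 17.8 in TENM4, and all protein-coding genes together had 4.44.

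As a share of the SOX2 regions within the gene, members made up 14 of 62 in TENM4 (22.6%), 14 of 69 in AUTS2 (20.3%), 11 of 55 in CACNA1C and 12 of 106 in RBFOX1 (11.3%), beside 10.0% over the whole list. These genes were named for their number of members, so shares above that value are in part fixed by the choice. Apart from LINGO2, the strongest member in each of these genes was modest, from 3.88 in EYS to 6.42 in RBFOX1, and each had an IDR above 0.05.

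Gene lists were read as the share of genes with a member in the gene or within 10 kb, beside 4731 of 19974 for all protein-coding genes (23.7%). Of 45 genes of neuronal adhesion and synapse, 39 had one (86.7%). Their median length was 927.5 kb, and of all protein-coding genes over 500 kb 295 of 314 had a member (93.9%), while of those up to 10 kb 513 of 5658 did (9.07%). In proportion to open regions this list did not stand out, since 192 of its 1999 SOX2 regions were SOX2-only (9.60%, 8.39 to 10.98), beside 10.0% over the list. Its strongest members were in TENM2, a teneurin (8.79), CTNNA2, the neuronal alpha-catenin (8.09), NRXN3, a neurexin (6.78), and CNTN4, a contactin (6.72).

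Neural progenitor and neurogenesis genes had a member in 10 of 42 cases (23.8%), with 17 of 185 SOX2 regions being members (9.19%, 5.82 to 14.2). The strongest was in DCX, a microtubule protein of migrating neurons (5.23), where it was the sole SOX2 region within 10 kb. It was followed by MSI2, an RNA-binding protein of progenitors (5.11), and POU3F3, a POU factor that can partner SOX2 (4.69). None of these members met the IDR threshold. Of the pluripotency genes 5 of 21 found had a member (23.8%), the strongest near LEFTY1, a NODAL antagonist (4.04), and in PRDM14 (3.24), with none at an IDR of at most 0.05 and 6 of 51 SOX2 regions (11.8%, 5.51 to 23.4).

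The SOX family had a member at 5 of 19 genes found (26.3%), and 10 of 110 SOX2 regions were members (9.09%, 5.01 to 15.9). At SOX7, a factor of endoderm and endothelium, chr8:10722681-10722986 lay 0.94 kb from the gene with inputs at 6.85 and 6.14 and an IDR of 0.0491. It was the sole SOX2 region there. SOX5, a gene of 1033 kb, held 6 of 45, the strongest at 5.74. At SOX3, the closest relative of SOX2 with SOX1, the value was 3.88 and at SOX18 3.53. Partners of SOX2 in foregut, lung and inner ear had a member at 6 of 17 genes (35.3%), led by GLI2, a Hedgehog effector (5.53), and CHD7, a chromatin remodeller (5.20), and 13 of 142 SOX2 regions were members (9.15%, 5.43 to 15.03).

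Wnt pathway genes had a member at 11 of 27 (40.7%), led by RNF43, a ligase that removes Wnt receptors (6.05), and WNT7A, a ligand (5.92). Their share of SOX2 regions was 15 of 195 (7.69%, 4.72 to 12.3). Osteoblast and mesenchyme genes had one at 4 of 24 (16.7%) with 7 of 136 SOX2 regions (5.15%, 2.52 to 10.2), and the upper bound of that interval lies just above the 10.0% of the whole list. ZEB2, a repressor of epithelial genes, held the strongest of them (7.17, IDR 0.0312), while RUNX2, the master factor of osteoblasts, had 1 of 12 at 4.36. AP-1 and TEAD genes had one at 4 of 20, with TEAD4 leading (8.18, IDR 0.0123). In each of the 8 lists the interval of the share of SOX2 regions that were members held the 10.0% of the whole list.

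At gene starts, the strongest members over a window of a protein-coding gene were at ATF7IP, a cofactor of histone methylation (inputs 8.51 and 8.48, IDR 0.0115), CELF5 (7.34 and 7.72), DGKD (7.16 and 11.3), CALHM1, a calcium channel of taste and brain (7.09 and 7.69), NEK6, a mitotic kinase (6.86 and 6.57), LAMA5 (6.56 and 7.81) and TRAF3 (6.76 and 6.35). Of the members over any window, 9 met the IDR threshold. Among the stretches printed above, the member at LDHC had inputs of 8.27 and 5.70, and those at HES6 5.20 and 7.69, at ADIG 4.84 and 7.10 and at APBA2 4.69 and 4.25. None of these members met the IDR threshold, with an IDR of 0.0865 at LDHC, 0.232 at HES6, 0.2302 at ADIG and 0.524 at APBA2. DGKD did not meet it either (0.0704), while CELF5 (0.0252), LAMA5 (0.0406) and TRAF3 (0.0434) did. The summit of the APBA2 member lay 76 bp downstream of the start, outside the printed stretch.

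The words in the windows were not part of the rule, but the rule formed the sets of windows compared. A fusion entry over a SOX2 region took it out of the members, and the sets were not matched for strength of entry. With the nearest window taken for each member, 53 of 184 held ACAAAG or ACAATG on either strand (28.8%, 22.7 to 35.7), beside 8538 of all 34961 windows (24.4%). Windows under SOX2 and fusion regions held one in 164 of 304 cases (53.9%, 48.3 to 59.5) and under fusion-only regions in 86 of 190 (45.3%, 38.3 to 52.4). Under wild-type-only regions it was 107 of 346 (30.9%, 26.3 to 35.98). The interval of the members thus overlapped those of all windows and of the wild-type-only windows. It lay above that of all SOX2 regions and below those of the SOX2 and fusion and the fusion-only windows. The SOX word is rich in A and T, and the median G+C was 56.3% for the members' windows, 42.7% for SOX2 and fusion and 45.3% for fusion-only windows. For windows under all SOX2 regions it was 65.3%. Among windows of at most 50% G+C, 30 of 65 held a SOX word in members (46.2%, 34.6 to 58.1), 139 of 229 in SOX2 and fusion (60.7%, 54.2 to 66.8), 70 of 129 in fusion-only (54.3%, 45.7 to 62.6), and 40.3% of all such windows. Among those over 50% G+C the shares were 19.3% (13.2 to 27.3), 33.3% (23.7 to 44.6), 26.2% (16.8 to 38.4) and 17.2% in the same order. Under all SOX2 regions the shares were 40.5% (38.0 to 43.0) at most 50% G+C and 14.5% (13.8 to 15.2) over it. Within both classes the interval of the members overlapped those of the SOX2 and fusion, the fusion-only and all SOX2 windows.

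Other words were counted in the same windows, on both strands. The AP-1 word TGANTCA stood in 25 of the 184 (13.6%, 9.38 to 19.3), with an interval above the 7.68% of all windows. It overlapped those of SOX2 and fusion (16.8%, 12.996 to 21.4), fusion-only (16.8%, 12.2 to 22.8) and wild-type-only windows (20.23%, 16.3 to 24.8). Windows under all SOX2 regions held the AP-1 word in 7.63% (7.18 to 8.11). The TEAD word GGAATG was in 14.7% (all windows 14.04%), the RUNX word TGTGGT in 10.3% (13.1%), the OCT word ATGCAAA in 6.52% (4.45%), the FOXA word TGTTTAC in 3.26% (3.42%) and the CTCF word AGGTGGC in 4.89% (6.73%). ATACAG, a reordering of ACAATG counted for its base composition, was in 5.43% of the members' windows and 7.33% of all windows. It was in 10.9% of SOX2 and fusion windows and 17.9% of fusion-only windows, the sets with the higher shares of the SOX word. Windows in which words overlap were counted for each of them.

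The SOX2 gene itself, on chromosome 3 from 181711925 to 181714436, carried entries in 8 of the 9 lists. In the SOX2 list the strongest had inputs at 26.3 and 22.7, in the fusion list 14.96 and 20.4, and in the wild-type list of the SOX2 set 16.2 and 23.5. The strongest SOX2 entry (181712248 to 181713357) and the strongest fusion entry (181712266 to 181713365) lay in the inner part of the gene, and the strongest wild-type entry (181710929 to 181712042) over its start. The wild type of the SOX2 set also had an entry in the inner part, from 181712617 to 181713356, with unequal inputs of 26.1 and 10.8, and so did replicate 1 of the FOXA2 set's wild type (11.3), of its full-length construct (4.34) and of its CTD deletion (13.8). Reads from a construct and from the gene cannot be told apart here, and the part of an uninduced construct was not tested. At starts of marker genes, 6 of 6 osteoblast and mesenchyme genes with a listed start (CDH2, FN1, PRRX1, RUNX2, SPARC and VIM) had a SOX2 entry at an IDR of at most 0.05 within 1 kb. None of 2 epithelial, 2 blood and 2 pluripotent markers with a start had one, and of 5 neural markers TUBB3 alone.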

How the data were processed

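ATAC-seq peak lists of 12 samples were used. Per the submitters' processing notes, FastQC 0.10.1, Trim Galore, Bowtie2 2.4.4, SAMtools 0.1.18, MACS2 and deepTools 2.4.1 were used by the authors, with the build hg38; replicate pooling and thresholds are not given in the sources used here. The deposited lists of the FOXA2 set give each peak a score, a fold enrichment (a ratio) and −log10 p and q values. The deposited lists of the SOX2 set give the −log10 p of an entry, which equals the lower of those of its inputs, its −log10 local and global IDR, and a deposited score. That the inputs were the 2 samples of a group is an assumption. The deposited summit, an offset in bp from the start, was used for position.

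Entries on chromosomes 1 to 22 and X were merged (1 bp) with Python 3.11.15, pandas 2.3.3 and numpy 2.4.6, checked against bedtools 2.31.1 and tested on simulated data. Of the deposited values, −log10 p, IDR and the positions of entries and summits were used; −log10 p and IDR of different lists are set side by side only as descriptions. Positions are 1-based. Genes were those of RefSeq, GRCh38.p14; starts came from the promoter table, which has 15812 of 19974 protein-coding genes and none used here on chromosome 8. Members and lists were chosen with earlier results of these data known. Named were the 20 strongest members at an IDR of at most 0.05, the 10 genes with most members, up to 4 genes per gene list and the 3 fullest megabases. Of the genes named by gene list, 1 is not reported here. The gene-free stretches, the genes at promoters and the promoter sequences were chosen after seeing the data. Alternatives covered overlap, IDR, lists used, windows and gene sets.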

Additional observations from a re-analysis of the deposited data

How the results depend on the processing

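The number of SOX2-only regions (14524) stayed within 1.5 times under another overlap rule, a gap of 500 bp, unmerged entries, the 3 lists of the SOX2 set, and without the wild-type list of that set, and leaving out each library of the FOXA2 set gave 14541 to 15546. It was 423 with SOX2 entries at an IDR of at most 0.05 and 5163 with all 3 IDR lists so limited. It was 56297 without the fusion list and 1992 with the 19862 strongest entries of each list. The share at an IDR of at most 0.05 (2.91%) was 0.599% at 0.01 and 6.01% at 0.1, by construction. The share within 1 kb of a start (1.36%) was 4.12% within 5 kb, 2.37% with starts of all genes, 2.02% at an IDR of at most 0.05, 0.985% with no other entry within 500 bp and 2.45% with either end of all protein-coding genes. The share in a gene body (38.6%) was 52.3% with all genes, 37.0% with the 3 lists of the SOX2 set and 41.9% without the gene-free stretches. The share within 10 kb of another SOX2 region (68.7%) was 12.2% within 1 kb, 98.3% within 50 kb and 67.7% without the stretches. The share over 500 kb from a gene (16.1%) was 9.53% without the stretches, 20.6% at an IDR of at most 0.05 and 18.95% with the 3 lists. Where the setting itself did not fix the change, the cause was not tested. Of 16 gene list shares under other flanks or IDR, 13 moved beyond the interval of the main share. The stretches and gene ends were chosen after seeing the data. Words and G+C around summits, planned with their alternatives, were not run, since no genome was used here. No paired analysis was possible because each group of the SOX2 set has 1 list and no result comes from a test. Read depth is unknown, and the weak entries of the 3 IDR lists limit what absence from a list shows.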
